A study of Mus musculus with 10 samples.

Results

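The NF-κB subunits and feedback inhibitors examined here are 10 genes chosen by name, *Nfkb1*, *Nfkb2*, *Rela*, *Relb*, *Nfkbia*, *Nfkbie*, *Nfkbiz*, *Tnfaip3*, *Bcl3* and *Ikbke*. A probeset, which is a set of array probes read as 1 value, was taken for a gene when the platform annotation gave its symbol. This found 9 of the 10 genes with 1 probeset each, out of 23410 probesets tested, and 0 of these probesets were shared with another gene. *Nfkb1* was not analysed here. Their expression was measured in perfused whole brains of female C57BL/6 mice aged 6 to 8 weeks, 5 treated with Aldara cream and 5 treated with aqueous control cream, with 1 Affymetrix GeneChip Mouse Gene 1.0 ST array per mouse. Aldara is a cream with 5% imiquimod, a ligand of the Toll-like receptor TLR7. The control was aqueous cream and not the vehicle of Aldara, so imiquimod and the other components of Aldara cannot be told apart. Each mouse received 80 mg of cream on shaved dorsal skin every 24 h for 5 applications, and the brain was taken 24 h after the last. All values are log2 expression values that the authors normalised with RMA, so a difference of 1 is 2-fold.

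NF-κB is a family of transcription factors that work as pairs of subunits. In resting cells the subunits are held in the cytoplasm by IκB proteins, and signals from Toll-like receptors, the TNF receptor or the IL-1 receptor lead IκB kinases to mark the IκB for destruction, so that the pair enters the nucleus. Several genes that NF-κB switches on encode its own inhibitors, which gives the pathway a negative feedback. In the brain, microglia, astrocytes, endothelial cells and any leukocytes that have entered can all use it. The activity of the pathway is set mostly by protein breakdown and movement, which an expression array does not measure.

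Of the 9 measured genes, 7 were higher after Aldara treatment, 0 were lower and 2 did not pass the test (limma with Benjamini-Hochberg adjustment over all 23410 probesets, adjusted p under 0.05). Over all probesets tested, 12.4% were higher and 21% were lower, 33.4% in all. The genes that rose were *Nfkbiz*, *Ikbke*, *Bcl3*, *Rela*, *Nfkb2*, *Nfkbia* and *Tnfaip3*, and those that did not pass were *Nfkbie* and *Relb*. The increases were small, between 1.13-fold for *Tnfaip3* and 1.58-fold for *Nfkbiz*. Only *Nfkbiz* of the 9 was at least 1.5-fold higher, as were 3.05% of all probesets, and 0 were at least 2-fold higher, against 1.59% of all probesets. In 6 of the 9, every Aldara-treated mouse lay above every control mouse, which was so for 10.5% of all probesets, and in 0 did every Aldara-treated mouse lie below, against 15.3% of all probesets. The median log2 fold change of the 9 genes was 0.24, and that of all probesets tested was -0.04. Small changes depended on how the arrays were scaled to each other. Among all probesets that passed, 37.1% were higher. This share was 19.3% when every array was shifted to 1 common median (the centred arrays) and 58.1% when the median difference of all probesets was set to 0. The 7 genes were higher, and past the threshold, under both of these scalings. In whole tissue, a change in the number of cells of a type and a change in RNA per cell cannot be told apart.

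**Figure D1:**
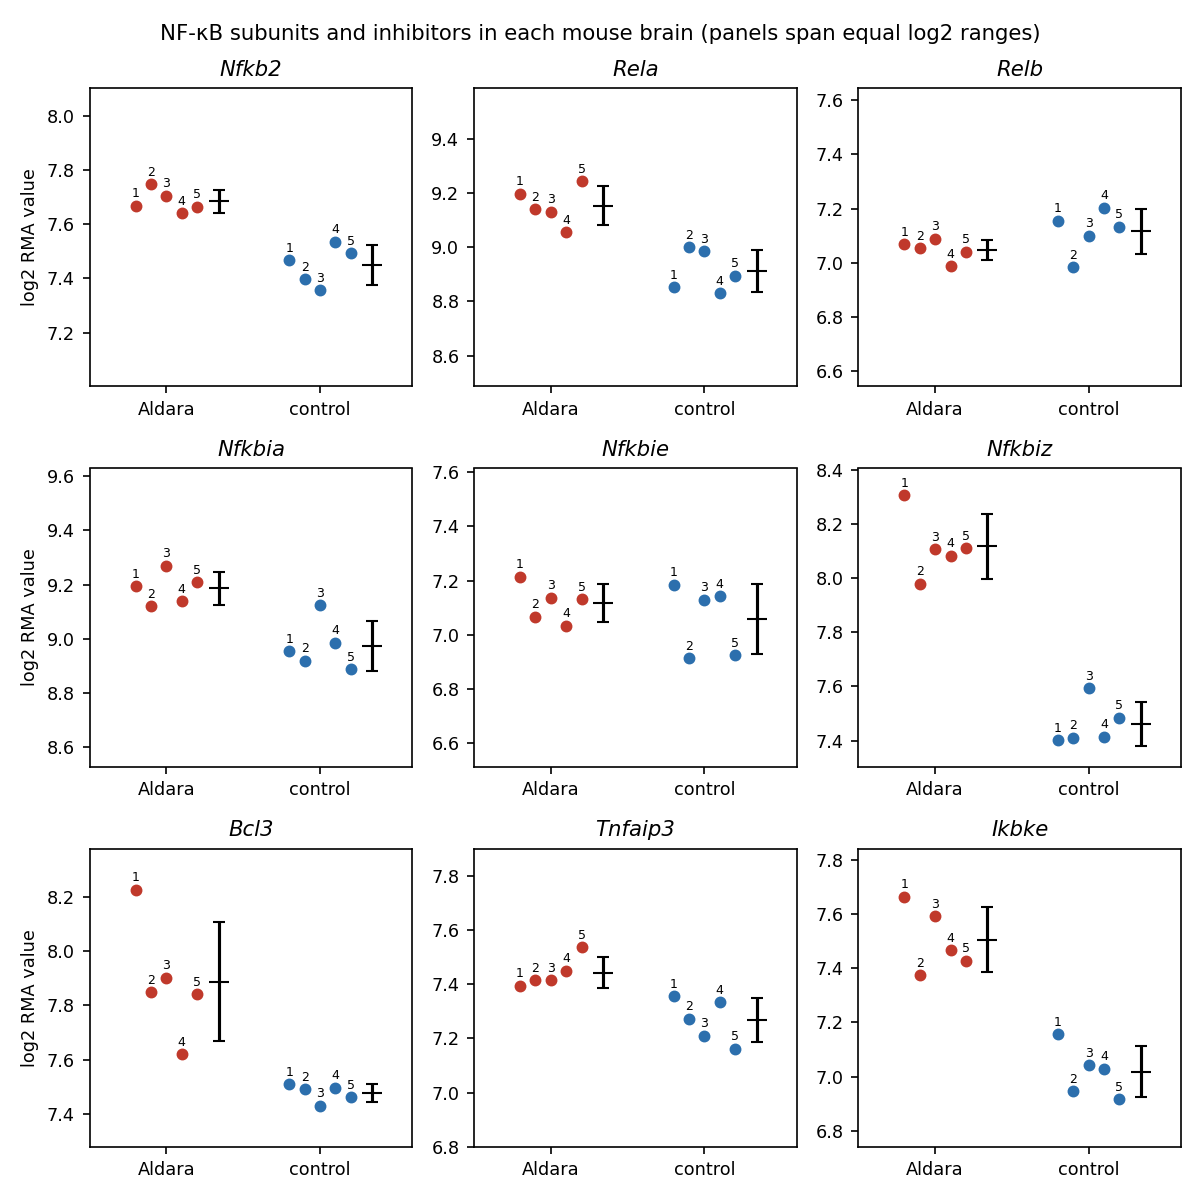
Log2 RMA value of each of the 9 measured genes in each brain, with 5 Aldara-treated mice (red, left) and 5 control mice (blue, right) per panel and replicate numbers beside the points. Black bars give the mean and SD of each group, all panels span equal log2 ranges, and the groups are apart in 6 panels and overlap for Relb, Nfkbia and Nfkbie.

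The promoters of the inhibitors are shown because these genes are textbook targets of NF-κB. Of the 3 shown, 2 rose and the third did not pass. Whether a match has a part in the change of any gene was not tested. RefSeq promoter windows (build GRCm38.p6) of 300 bases, with 250 before and 50 from the start site, were matched for 7 of the 10 genes by gene symbol, with 10 windows in all because *Nfkb2* has 3 and *Tnfaip3* has 2. No window was matched for *Nfkb1*, *Relb* and *Nfkbiz*, the last being the gene with the largest increase, so these were not searched. The 10 windows were searched on both strands for the NF-κB consensus, the IUPAC pattern of the κB site. A match was found in 7 of these windows, which belong to 5 genes, *Nfkb2*, *Nfkbia*, *Nfkbie*, *Bcl3* and *Tnfaip3*. Of all 32851 windows, 8.46% held one. The stretches before the start site of *Nfkbia*, *Tnfaip3* and *Nfkbie* are printed 5′ to 3′ along the gene, with the consensus matches in capitals.
Nfkbia (chr12:55492648-55492897, minus strand): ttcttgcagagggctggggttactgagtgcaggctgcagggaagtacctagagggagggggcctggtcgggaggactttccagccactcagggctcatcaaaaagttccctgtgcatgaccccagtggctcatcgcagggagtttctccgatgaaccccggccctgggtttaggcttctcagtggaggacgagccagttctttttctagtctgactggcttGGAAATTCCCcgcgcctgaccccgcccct
Tnfaip3 (chr10:19015411-19015660, minus strand): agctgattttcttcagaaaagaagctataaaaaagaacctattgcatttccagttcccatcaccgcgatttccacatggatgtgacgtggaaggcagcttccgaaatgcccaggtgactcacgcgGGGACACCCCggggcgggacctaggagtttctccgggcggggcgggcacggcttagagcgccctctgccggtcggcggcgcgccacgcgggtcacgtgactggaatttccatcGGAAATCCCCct
Nfkbie (chr17:45555450-45555699, plus strand): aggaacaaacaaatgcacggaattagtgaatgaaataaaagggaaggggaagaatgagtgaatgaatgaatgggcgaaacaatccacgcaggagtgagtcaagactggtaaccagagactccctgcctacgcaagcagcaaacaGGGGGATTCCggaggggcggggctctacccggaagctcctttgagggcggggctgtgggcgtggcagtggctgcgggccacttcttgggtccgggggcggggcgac

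The match of *Nfkbia* lies 29 to 20 bases before its start site, and on the opposite strand it also fits a wide pattern, GGG, then 2 bases of any kind, then TTTCC, held by 1.63% of all windows, and a narrower one, GGGA, then 1 base of any kind, then TTTCC, held by 0.411%. Every match of the narrower pattern is also a match of the wide one, and both overlap the consensus match. One match of *Tnfaip3*, 12 to 3 bases before the start site, fits the wide pattern on the opposite strand as well. The match of *Nfkbie* lies 106 to 97 bases before the start and fits neither. *Nfkbia* and *Tnfaip3* also held GGAANTTCC, found in 0.928% of all windows, which for *Nfkbia* overlaps the consensus match. Further consensus matches lay inside the annotated gene. The second window of *Nfkb2* held 2, the third held 1 that is also in the second, and the first window of *Nfkb2* held 3, at chr19:46304698-46304707, chr19:46304699-46304708 and chr19:46304726-46304735, of which the first and second overlap. The third one reads as follows, with the match in capitals, as does that of *Bcl3*, which lies 2 to 11 bases after the start site.
Nfkb2 (chr19:46304726-46304735, plus strand): GGGGCTTTCC
Bcl3 (chr7:19822744-19822753, minus strand): GGGAAGTCCC

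The windows of *Rela* and *Ikbke* held no consensus match. The pattern GAAA, then 2 bases of any kind, then GAAA, part of the element through which interferon acts, was in 0 of the 10 windows and in 3.44% of all. A match is a run of letters and does not show that a factor binds there, and the absence of one speaks only for these bases.

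**Figure D2:**
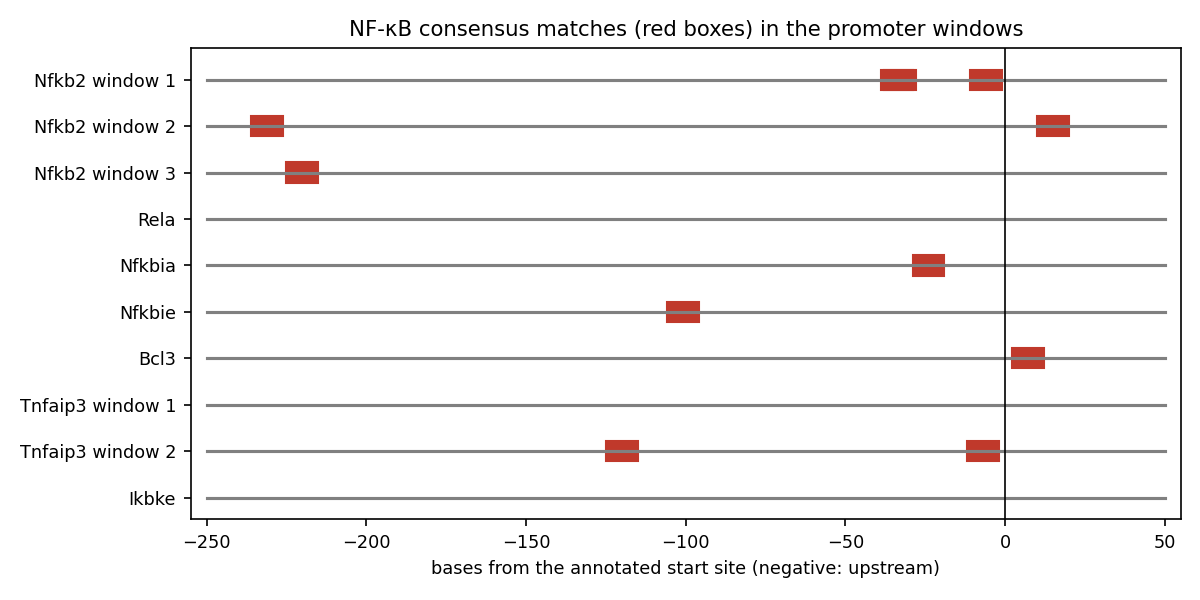
Position of NF-κB consensus matches (red boxes) on either strand in the RefSeq promoter windows of 7 genes, in bases from the annotated start site. Nfkb2, Nfkbia, Nfkbie and Tnfaip3 hold matches upstream of the start site. Bcl3 and the second window of Nfkb2 each hold 1 just after it, and Rela and Ikbke hold none.

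Among the subunits, *Rela* and *Nfkb2* rose and *Relb* did not pass the test. *Rela* encodes p65, which carries a transactivation domain and is the main activating partner of the classical pathway. Its log2 values were 9.20, 9.14, 9.13, 9.05 and 9.24 in Aldara-treated mice 1 to 5, and 8.85, 9.001, 8.98, 8.83 and 8.90 in control mice 1 to 5. The groups did not overlap, though the lowest Aldara-treated mouse stood only just above the highest control mouse. The log2 fold change was 0.24 ± 0.04 (standard error), with an adjusted p of 0.0014 in limma, or 1.18-fold (95% interval 1.10 to 1.26).

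*Nfkb2* encodes p100, which acts as an inhibitor until it is cut to the subunit p52 of the non-canonical pathway. In Aldara-treated mice it had log2 values of 7.67, 7.75, 7.70, 7.64 and 7.66, and in control mice 7.47, 7.40, 7.36, 7.53 and 7.49. Every Aldara-treated mouse was above every control mouse. Its log2 fold change was 0.24 ± 0.04 (standard error), with an adjusted p of 5.2e-04 in limma. The array reads RNA and cannot tell p100 from p52.

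*Relb*, the usual partner of p52, had log2 values of 7.07, 7.05, 7.09, 6.99 and 7.04 in Aldara-treated mice and 7.16, 6.98, 7.10, 7.20 and 7.13 in control mice. The groups overlapped because control mouse 2 lay below all Aldara-treated mice. The log2 difference was -0.07 ± 0.04 (standard error), with an adjusted p of 0.22 in limma and a 95% interval of -0.15 to 0.02. Without control replicate 2 it was -0.10 (adjusted p = 0.037 from limma), and on the centred arrays -0.12 (adjusted p = 0.021), so that *Relb* then passed as lower.

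**Figure D3:**
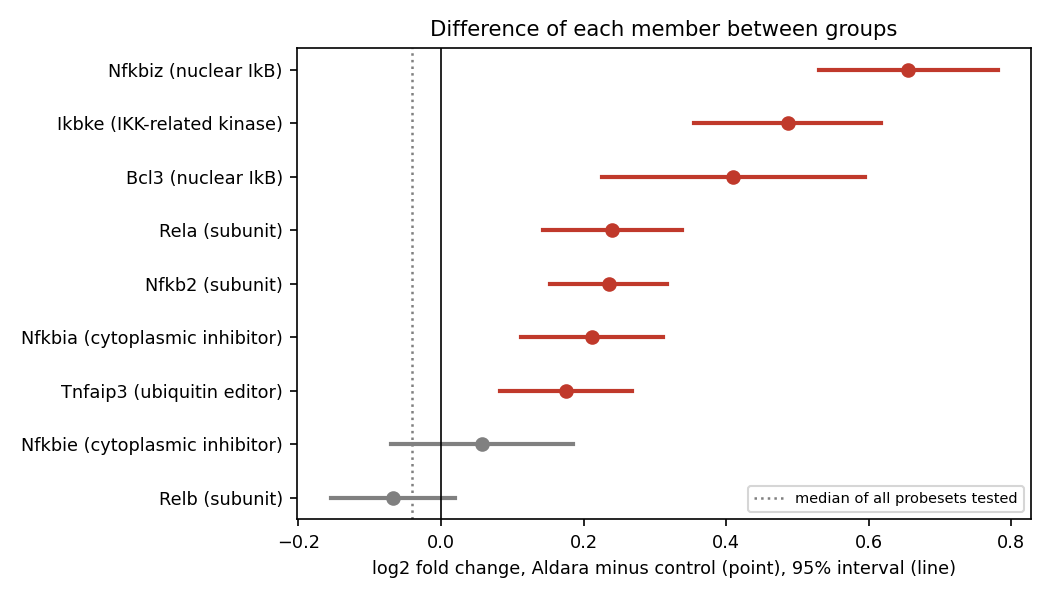
Log2 fold change of each measured gene, Aldara minus control, with its 95% interval from limma; red marks genes past an adjusted p of 0.05, grey marks those that did not pass, and the dotted line is the median of all probesets tested (-0.04). Nfkbiz stands highest at 0.66, and the intervals of Nfkbie and Relb cross 0.

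The cytoplasmic inhibitors differed from each other in whether they passed. *Nfkbia* encodes IκBα, which captures NF-κB in the nucleus and returns it to the cytoplasm. It had log2 values of 9.19, 9.12, 9.27, 9.14 and 9.21 in Aldara-treated mice and 8.95, 8.92, 9.12, 8.99 and 8.89 in control mice. It was the only one of the 7 genes that rose with an overlap, since control mouse 3 lay slightly above Aldara-treated mouse 2. The log2 fold change was 0.21 ± 0.05 (standard error), with an adjusted p of 0.0037 in limma, or 1.16-fold (95% interval 1.08 to 1.24).

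*Nfkbie* encodes IκBε, which acts more slowly on the same dimers. It had log2 values of 7.21, 7.07, 7.14, 7.03 and 7.13 in Aldara-treated mice and 7.19, 6.91, 7.13, 7.14 and 6.92 in control mice, and the groups overlapped widely. Control mice 2 and 5 were low, while the other control mice lay within the range of the Aldara-treated mice. The log2 difference was 0.06 ± 0.06 (standard error), with an adjusted p of 0.48 in limma and a 95% interval of -0.07 to 0.19, whose upper end is close to the increase measured for *Nfkbia*. That *Nfkbie* and *Nfkbia* differ in their change was not tested.

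*Tnfaip3* encodes A20, an enzyme that edits ubiquitin chains on signalling proteins upstream of the IκB kinases and so ends the signal. Its log2 values were 7.39, 7.41, 7.42, 7.45 and 7.54 in Aldara-treated mice, and 7.36, 7.27, 7.21, 7.33 and 7.16 in control mice. The groups were apart by a narrow margin, between Aldara-treated mouse 1 and control mouse 1. It had the smallest increase of those that passed, a log2 fold change of 0.18 ± 0.04 (standard error), with an adjusted p of 0.0073 in limma. Its adjusted p was at most 0.030 over the other settings that used all 10 arrays, and at most 0.021 when 1 array was left out.

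The atypical IκB genes and the IKK-related kinase showed the 3 largest increases. *Nfkbiz* encodes IκBζ, a nuclear protein that binds NF-κB at promoters and helps switch on a second wave of genes. Unlike IκBα, it is known to be needed for the expression of some targets. Its log2 values were 8.31, 7.98, 8.11, 8.08 and 8.11 in Aldara-treated mice and 7.40, 7.41, 7.59, 7.41 and 7.48 in control mice. Aldara-treated mouse 1 was highest and all 5 lay well above the controls. The log2 fold change was 0.66 ± 0.06 (standard error), with an adjusted p of 3.8e-06 in limma, or 1.58-fold (95% interval 1.44 to 1.72), and 2.7% of all probesets tested had a larger one.

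*Ikbke* encodes IKKε, a kinase related to the IκB kinases that acts with TBK1 on the interferon regulatory factors. Its log2 values were 7.66, 7.38, 7.59, 7.47 and 7.43 in Aldara-treated mice and 7.16, 6.95, 7.04, 7.03 and 6.92 in control mice. Again mouse 1 was the highest Aldara-treated mouse, and the groups were apart. The log2 fold change was 0.49 ± 0.06 (standard error), with an adjusted p of 7.5e-05 in limma, or 1.40-fold (95% interval 1.28 to 1.53).

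*Bcl3* encodes a nuclear IκB that joins p50 or p52 dimers and can activate or repress. Its log2 values were 8.23, 7.85, 7.90, 7.62 and 7.84 in Aldara-treated mice and 7.51, 7.49, 7.43, 7.50 and 7.46 in control mice. The SD was 0.22 among Aldara-treated mice, with mouse 1 high and mouse 4 low, and 0.03 among control mice (n = 5 each), and the groups were apart. The log2 fold change was 0.41 ± 0.08 (standard error), with an adjusted p of 0.0027 in limma, or 1.33-fold (95% interval 1.17 to 1.51). Without Aldara replicate 1 it was 0.33 and still passed. The interval of *Bcl3* overlapped those of *Ikbke* and *Nfkbiz*, and the order of these 3 genes was not tested.

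For each of the 6 genes whose groups did not overlap, a two-sided exact permutation test of the group labels gave p = 0.0079, the smallest that 5 mice against 5 allow. With groups apart, this test can give no other value, so it only restates the separation and adds no support. Over all probesets, the groups were apart with Aldara above in 10.5% and with Aldara below in 15.3%. The same exact test gave p = 0.016 for *Nfkbia*, p = 0.14 for *Relb* and p = 0.41 for *Nfkbie*.

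**Figure D4:**
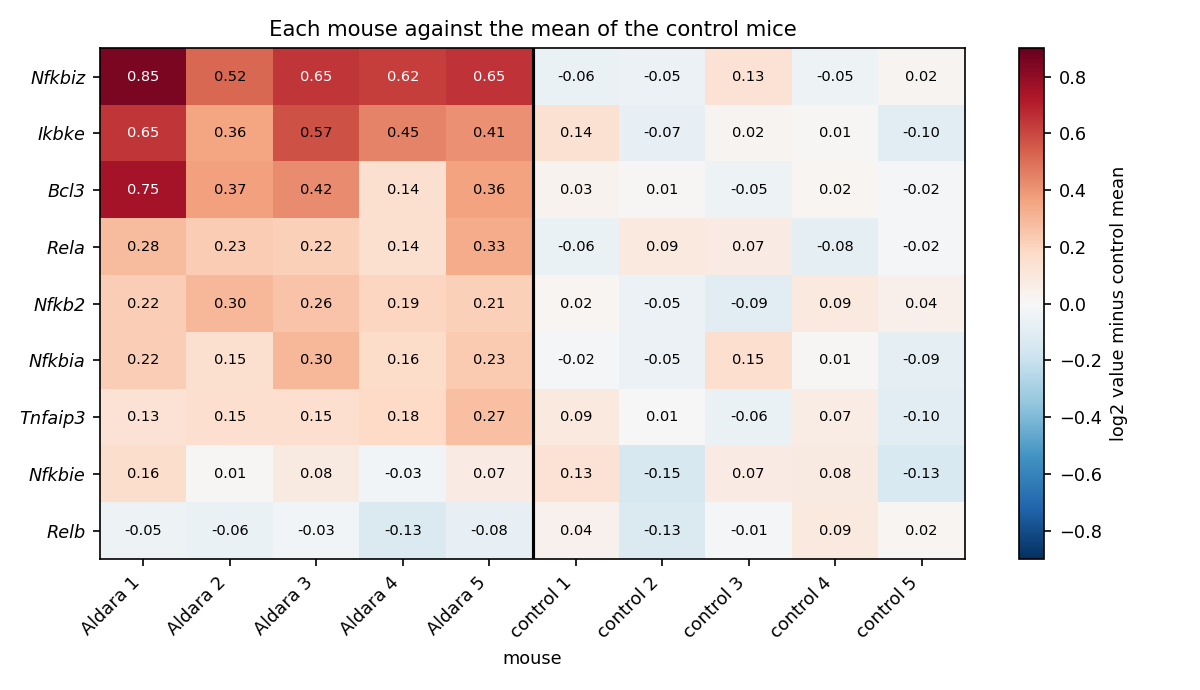
Log2 value of each gene in each mouse minus the mean of the 5 control mice, with Aldara-treated mice on the left and control mice on the right, and genes in order of log2 fold change. In the rows of Nfkbiz, Ikbke and Bcl3, Aldara-treated mouse 1 is the highest, at 0.85, 0.65 and 0.75.

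Averaged over all 9 measured genes, Aldara-treated mice 1 to 5 differed from the control mean by 0.36, 0.22, 0.29, 0.19 and 0.27. Aldara-treated mouse 1 was the highest of its group for 4 genes and mouse 4 was the lowest for 5. Aldara-treated mouse 5 had the first principal component score farthest from the controls over all probesets, and was the highest of its group for 2 of these 9 genes, *Rela* and *Tnfaip3*.

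In the rest of the pathway, a list of 58 further genes of which 52 had a probeset, 17 were higher, 3 were lower and 32 did not pass the test. The number higher was 12 on the centred arrays and 22 with the median difference set to 0. With 1 probeset per gene, 11.8% of all 19938 genes were higher and 22.4% were lower. The median log2 fold change of the list was 0.06, and that of all genes was -0.05. *Rel*, which encodes the remaining subunit c-Rel of lymphoid and myeloid cells, rose by 0.32 on the log2 scale (standard error 0.04, adjusted p = 1.8e-04 from limma), with 8.73 to 8.88 in the Aldara group and 8.35 to 8.57 in the control group.

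A group of 9 measured genes covered the IκB kinases, kinases upstream of them and proteins that bind these kinases. Of the 9, 3 were higher, *Map3k8*, *Tbk1* and *Tab2*, with log2 fold changes of 0.36, 0.13 and 0.11. *Tab2* encodes a binding protein and not a kinase. For this and the following counts by role, the shares over all genes were 11.8% higher and 22.4% lower. *Map3k8* and *Tab2* are named here after their values were seen, and *Tab2* did not pass on the centred arrays (adjusted p = 0.066). *Ikbkb*, which encodes the catalytic kinase IKKβ of the classical pathway, had a log2 difference of -0.06 ± 0.04 (standard error, adjusted p 0.25 in limma), and passed as lower on the centred arrays, at -0.11 (adjusted p = 0.029). *Ikbkg*, which encodes the scaffold NEMO, had one of -0.01 ± 0.03 (standard error, adjusted p 0.88 in limma). *Tbk1*, the partner kinase of IKKε, did not pass on the centred arrays (adjusted p = 0.090), nor without Aldara replicate 1 or 5 or control replicate 2 or 4, where its adjusted p was 0.059, 0.054, 0.067 and 0.068.

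Of 13 measured genes for adapters and related proteins that link receptors to the kinases, 7 were higher and 0 lower. One of the 7, *Tank*, named after its value was seen, had overlapping groups and was close to the threshold (adjusted p = 0.041 in limma). Its call was kept in only 1 of the 10 runs with 1 array left out. *Bcl10*, also named after its value was seen, had overlapping groups too, at a log2 fold change of 0.20 (adjusted p = 0.0036 in limma). The call of *Bcl10* was kept in all 10 of these runs. *Myd88*, the adapter of most Toll-like receptors and of the IL-1 receptor, lay at log2 8.86 to 9.24 in the Aldara group and at 7.83 to 7.94 in the control group, a log2 increase of 1.13 ± 0.06 (standard error, adjusted p 7.0e-08 in limma). *Irak3*, which encodes IRAK-M, a kinase-like protein that restrains this signalling, rose by 1.04 ± 0.10 on the log2 scale (standard error). *Tifa*, an adapter of TRAF6, rose by 0.71 ± 0.06 (standard error), and *Tirap*, which brings MyD88 to some receptors, by 0.37 ± 0.04 (standard error).

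Among TRAF proteins and ubiquitin ligases 4 of 11 were higher, led by *Birc3*, an inhibitor of apoptosis that is itself a κB target, at 0.58 ± 0.06 (standard error). The others, named after their values were seen, were *Rnf31* and *Sharpin*, which encode parts of the enzyme that builds linear ubiquitin chains, at 0.23 and 0.10, and *Peli1* at 0.12. *Sharpin* and *Peli1* were close to the threshold (adjusted p = 0.037 and 0.045 in limma) and did not pass on the centred arrays (adjusted p = 0.20 and 0.19), with the replicate number as a block (0.083 and 0.11). The call of *Sharpin* was also lost without Aldara replicate 3, 4 or 5 or control replicate 1, 2 or 3 (adjusted p up to 0.087), and that of *Peli1* without Aldara replicate 1, 3, 4 or 5 or control replicate 1, 4 or 5 (adjusted p up to 0.11). One was lower, *Btrc*, which encodes the ligase receptor that binds phosphorylated IκB, at -0.07 ± 0.02 (standard error, adjusted p 0.049 in limma). The call of *Btrc* was lost when any array other than Aldara replicate 2 was left out, with an adjusted p of up to 0.11, and it was 0.49 with the median difference set to 0. Of 15 other negative regulators 2 were higher and 2 were lower. Both counts are near or below the shares over all genes (11.8% higher and 22.4% lower), so nothing is read from them. *Usp18* had the largest increase of the list, 3.66 ± 0.22 (standard error), with 10.20 to 11.72 in the Aldara group and 6.92 to 7.31 in the control group, and it is best known as an interferon-induced protease that removes ISG15. The other increase, also named after its value was seen, was that of *Nlrc3*, at 0.17. *Cyld* and *Rnf11*, which encode a deubiquitinase and a partner of A20, were lower by small amounts, at -0.12 ± 0.03 (standard error) and -0.11 ± 0.03 (standard error), and *Rnf11* did not pass with the median difference set to 0 (adjusted p = 0.099). Of 3 other IκB genes none passed, and *Nfkbib*, which encodes IκBβ, had a log2 difference of 0.03 ± 0.04 (standard error, adjusted p 0.54 in limma).

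**Figure D5:**
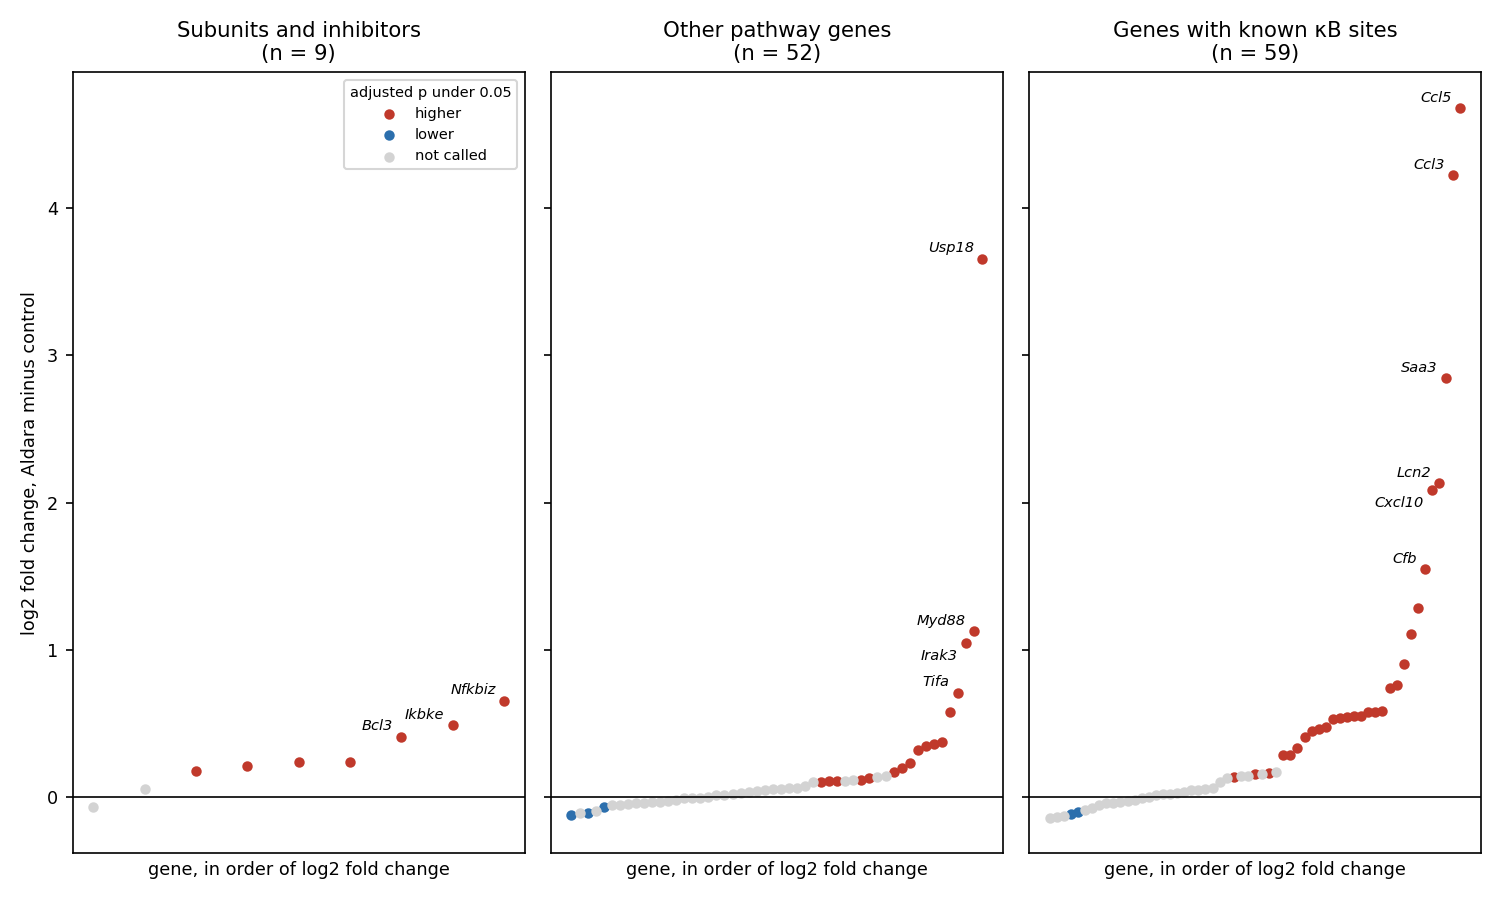
Log2 fold change of each gene, Aldara minus control, in order within the 9 measured subunits and inhibitors, 52 other pathway genes and 59 genes with known κB sites. Red and blue points passed an adjusted p of 0.05 as higher and lower, grey points did not pass, and the increases of Ccl5, Ccl3 and Usp18 exceed those of all 9 subunits and inhibitors.

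Of 59 measured genes with κB sites known from the literature, 29 were higher, 2 were lower and 28 did not pass. Over all genes, 11.8% were higher and 22.4% were lower. At least 2-fold higher were 8 of the 59, as were 1.63% of all genes. Their median log2 fold change was 0.15, and 4 of them are also in the pathway list. The counts of higher genes were 11 of 22 for chemokines and cytokines, 7 of 13 for adhesion and surface molecules, 6 of 11 for enzymes and acute phase proteins, and 5 of 13 for survival and feedback genes. The last 5 were *Cflar*, *Birc3*, *Ccnd1*, *Myc* and *Ier3*, at 0.59, 0.58, 0.53, 0.28 and 0.15, and apart from *Birc3* they are named with their values already seen. The 6 largest increases were those of *Ccl5*, *Ccl3*, *Saa3*, *Lcn2*, *Cxcl10* and *Cfb*. The chemokines *Ccl5* and *Ccl3*, which attract leukocytes, and *Cxcl10*, which attracts T cells and natural killer cells, had log2 fold changes of 4.68, 4.22 and 2.08. *Saa3*, an acute phase protein, lay at log2 8.89 to 10.27 in the Aldara group and at 6.39 to 6.75 in the control group, a log2 fold change of 2.85 ± 0.20 (standard error), *Lcn2*, a protein that binds iron carriers of bacteria, one of 2.13 ± 0.06 (standard error), and *Cfb*, factor B of complement, one of 1.55 ± 0.13 (standard error).

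Of the classical inflammatory cytokines, *Tnf* and *Il1b* rose and *Il6* did not pass. *Tnf* lay at log2 7.32 to 7.83 in the Aldara group and at 6.98 to 7.24 in the control group, a log2 increase of 0.55 ± 0.09 (standard error, adjusted p 4.4e-04 in limma). *Il1b* lay at 6.68 to 6.84 in the Aldara group and at 6.11 to 6.51 in the control group, a log2 fold change of 0.46 ± 0.06 (standard error). *Il6* lay at 4.99 to 5.06 in the Aldara group and at 5.00 to 5.06 in the control group, near the lowest value on the arrays (4.73), with a log2 difference of -0.01 ± 0.03 (standard error, adjusted p 0.85 in limma). Whether its probeset stood above background is not known, so a change in *Il6* could have gone undetected. The 2 genes that were lower were *Csf2*, at -0.12 ± 0.03 (standard error), and *Sod2*, a mitochondrial superoxide dismutase, at -0.10 ± 0.03 (standard error), and neither passed with the median difference set to 0 (adjusted p = 0.10 and 0.12). *Csf2* was also low on the arrays, at log2 5.35 to 5.47 in the Aldara group and 5.48 to 5.58 in the control group. Whether the *Csf2* probeset stood above background is not known either.

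Markers of other cell types moved with the treatment, and their part in these results was not tested. The list members named in this paragraph, other than up to 2 of each list, were chosen after their values were seen. Beside the counts below, 11.8% of all genes were higher and 22.4% were lower. Of 14 measured markers of leukocytes, monocytes and macrophages 13 were higher, and the log2 of their summed values was 13.64 to 13.92 in the Aldara group and 11.51 to 11.63 in the control group. Microglia also express some of these genes, such as *Csf1r* and *Tyrobp*, whose control means were 9.74 and 8.79. This list therefore does not separate cells that entered the brain from microglia. Of 9 microglia markers 6 were higher and 2, *Siglech* and *Gpr34*, were lower (summed 13.37 to 13.54 in Aldara-treated mice, 13.08 to 13.16 in control mice), and of 10 endothelial markers 8 were higher (13.22 to 13.38 in Aldara-treated mice, 12.81 to 12.91 in control mice). The number of microglia markers higher was 4 to 6 when 1 array was left out, since *Fcrls* and *Sparc* each kept their call in only 4 of these 10 runs. Of 8 natural killer cell markers 7 were higher (10.37 to 10.84 in Aldara-treated mice, 9.63 to 9.79 in control mice), with *Gzma* and *Nkg7* at log2 fold changes of 1.36 and 1.69. Of 8 T cell markers, *Cd3g*, *Cd8b1* and *Cd8a* were higher and *Cd4* was lower, and of 7 B cell markers *Cd79b*, *Jchain* and *Cd22* were higher, with ranges of 9.68 to 9.81 in Aldara-treated mice against 9.62 to 9.76 in control mice for T cells, and 9.39 to 9.62 in Aldara-treated mice against 9.21 to 9.34 in control mice for B cells. The other B cell markers, *Ms4a1*, *Cd79a*, *Blk* and *Pax5*, did not pass, with log2 differences of -0.005, -0.08, -0.11 and -0.11. The median of the B cell list was -0.005. Of 10 neutrophil markers 0 passed in limma (summed 9.48 to 9.56 in Aldara-treated mice, 9.47 to 9.54 in control mice), with 1 higher and 2 lower at an unadjusted p under 0.05 and 1 lower in the methods' t-test after adjustment. This count moved with the scaling, to 2 higher with quantile normalisation, 3 higher with the median difference set to 0 and 2 lower on the centred arrays, and it was 1 higher with array weights, with the replicate number as a block and without Aldara replicate 5. Of 8 astrocyte markers *Gfap*, *Aldh1l1* and *Aqp4* were higher and *Slc1a2*, *S100b* and *Slc1a3* were lower (13.89 to 13.96 in Aldara-treated mice, 13.99 to 14.05 in control mice). Of 9 neuronal markers 8 were lower (15.36 to 15.38 in Aldara-treated mice, 15.47 to 15.51 in control mice), which was 5 with the median difference set to 0. Of 8 oligodendrocyte markers *Mag* was higher and *Mbp* was lower (13.94 to 14.04 in Aldara-treated mice, 14.00 to 14.07 in control mice). On the centred arrays *Mag* did not pass (adjusted p = 0.15) and 3 of these markers were lower. An array has no level of 0, so which markers are absent cannot be read from these values.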

How the data were processed

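Perfused whole brains of 5 Aldara-treated and 5 control mice were measured with 1 array per mouse. The deposited values are log2 values from RMA, which the authors ran in GeneSpring GX (background subtraction, quantile normalisation, probeset summary), and they ran from 4.73 to 14.56. Software version and library file are not given in the sources used here, and scanner values were not analysed here, so background could not be judged. Gene symbols came from the platform annotation, in which 21789 of 28856 probesets had 1 symbol, 1621 several and 5446 none. The 23410 with a symbol were tested with limma 3.58.1 (lmFit, eBayes) in R 4.3.3, with no covariate and Benjamini-Hochberg adjustment over all of them. In lists, the probeset with 1 symbol and the highest mean was used. Genes were named by rule: all 10 members, in each list the 6 largest increases and 4 largest decreases that passed without overlap between groups, core genes in any case, and up to 2 markers per cell type with the smallest p. Members and lists were chosen with earlier results of these data known, so they are no independent support. The lists are the pathway, genes with κB sites and 10 cell type lists. In simulated data with 200 of 23410 probesets changed, 52% of 1.15-fold, 94% of 1.3-fold and 100% of 1.5-fold changes were recovered, with 11 false calls among 184. The simulation changed a far smaller share of probesets than the 33.4% that passed in the data. Its noise was independent between probesets, with no shift of whole arrays. The recovered shares therefore do not give the sensitivity of the test on these data. The number of arrays limits the precision, and no batch or scan date was given in the sources used here. Promoter sequences are from RefSeq (GRCm38.p6). Alternatives were other scalings, probeset sets, a brightness filter, an intensity trend, array weights, the replicate block, the methods' t-test, other summaries and leaving out each array.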

Additional observations from a re-analysis of the deposited data

Results flagged for a closer look

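In each group of 5 mice, a mouse was looked for that stood apart from the other 4 by more than Dixon's 95% critical value of 0.71. Of 18 groups of the 9 subunits and inhibitors, 0 held such a mouse. Among all 108 groups of the 54 genes checked, 7 did, and chance gives about 1 in 20. *Rel* in control mouse 4 had a log2 value of 8.35, below 8.51 to 8.57 in the others. *Ccl5* in Aldara-treated mouse 5 had 12.69, above 12.08 to 12.22, and *Nkg7*, a granule protein of natural killer cells, had 8.76 in the same mouse, above 8.05 to 8.20. *Cd79b*, a chain of the B cell receptor, had 7.72 in that mouse, below 8.10 to 8.20. *Cd8b1*, a T cell coreceptor chain, had 6.67 in Aldara-treated mouse 3, above 6.59 to 6.61. *Gfap*, the filament protein of astrocytes, had 9.26 in control mouse 1, below 9.40 to 9.44, and *Mag*, a myelin protein, had 11.06 in control mouse 3, below 11.13 to 11.15.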

How the results depend on the processing

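The 7 increases among the 9 genes kept their direction and passed in every setting in which the gene was tested, including each array left out in turn. Among brighter probesets, those at or above the median level, only *Rela* and *Nfkbia* were tested, so 2 were higher, and with a 1.5-fold cutoff 1 was. The number that were lower was 1 on the centred arrays and 0 to 1 when 1 array was left out, in each case *Relb*. Among brighter probesets, 10 pathway genes and 10 genes with κB sites were higher, because fewer were tested. On the centred arrays, 7 pathway genes and 6 genes with κB sites were lower, and with the median difference set to 0 these were 1 and 0. Of the cell type lists, counts for neutrophil, neuronal and oligodendrocyte markers moved with the scaling as given with them, and 2 B cell markers and 1 leukocyte marker were lower on the centred arrays. Among brighter probesets 1 gene with κB sites was lower. Over all probesets tested, 9606 were lower on the centred arrays and 2760 with the median difference set to 0, against 4926. The sources used here do not say whether the replicate numbers pair the mice. Same-numbered mice correlated in their deviations at -0.11 to 0.25, and 2 of 5 Aldara-treated mice correlated best with their own number. These few values show no clear pairing and cannot exclude one. With the replicate number as a block, 7 of the 9 genes, 16 pathway genes and 30 genes with κB sites were higher, and 2701 probesets were higher and 4421 lower over the table. With the methods' t-test and Benjamini-Hochberg adjustment, 7 of the 9 genes were higher, and 2750 probesets were higher and 4484 lower in all. Probes near background limit dim genes, and the scanner signal was not analysed here.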

Other observations

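Within groups, the 9 genes did not vary as a block. Over the 36 pairs of genes, the Pearson correlation of deviations from the group means across 10 arrays ran from -0.56 for *Nfkb2* and *Rela* to 0.78 for *Nfkbie* and *Ikbke*, with a median of 0.19, and 8 pairs were above 0.5 while 10 were below 0. The pairs of *Nfkbiz*, *Bcl3* and *Ikbke* were *Nfkbiz* and *Bcl3* at 0.55, *Bcl3* and *Ikbke* at 0.59 and *Nfkbiz* and *Ikbke* at 0.52, and Aldara-treated mouse 1 was the highest of its group in all of them. These are descriptions over arrays that share their normalisation.

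Of 19929 other genes, the 5 whose deviations were most like those of *Nfkbiz* were *Gcsh*, *Mcpt1*, *Adamtsl1*, *Pla2g4a* and *B4galt1*, with correlations of 0.92 to 0.93 over 10 arrays. They are the top of a very large number of correlations over few arrays, which are high by that choice alone, and nothing is read from them. *Gcsh*, *Mcpt1* and *Adamtsl1* did not pass the test between groups, and *Mcpt1* had a low mean level (5.29 in Aldara-treated mice and 5.31 in control mice). *Pla2g4a*, the cytosolic phospholipase that frees arachidonic acid, and *B4galt1*, a galactosyltransferase, were higher in Aldara-treated mice, by 0.98 ± 0.06 and 1.00 ± 0.06 on the log2 scale (± standard error).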
